A study of Mus musculus with 2 samples.

Results

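The miR-200 family is a set of 5 microRNA (miRNA) genes, Mir200b, Mir200a, Mir429, Mir200c and Mir141, encoded in 2 genomic clusters. The members were taken by name from the deposited miRNA count tables, and all 5 of 5 were found among the 1973 genes listed. The tables come from miRNA sequencing of embryonic mouse lung of the strain B6NCrl, taken 14.5 days into development (E14.5), with 2 libraries that are biological replicates of 1 group. No genotype, treatment or other stage was labelled, so there is no contrast between conditions. Each library is labelled as 1 lung of 1 pup, although the sex is given as pooled. The replicates were collected on different days, so the replicate and the day of collection cannot be told apart.

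A miRNA is cut from a hairpin in a longer primary transcript and guides silencing of messenger RNAs that pair with its seed, bases 2 to 8 counted from its 5′ end. The miR-200 family is known as an epithelial family: it represses Zeb1 and Zeb2, transcription factors that switch off E-cadherin, and Zeb1 and Zeb2 in turn repress both miR-200 clusters. In the embryonic lung the branching airway tubes are epithelium surrounded by mesenchyme, endothelium and smooth muscle. The libraries hold miRNA counts of whole tissue, so messenger RNA markers of epithelium and of lung were not measured. In such bulk tissue, fewer cells of a type and less RNA per cell cannot be told apart.

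The mature 3p strands (cut from the 3′ arm of the hairpin) are shown because their seed splits the family across the clusters. Sequences are RefSeq's, with coordinates of GRCm38 (mm10), all on the minus strand. The seed is in capitals.
miR-200b-3p: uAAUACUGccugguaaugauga
miR-429-3p: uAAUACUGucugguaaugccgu
miR-200c-3p: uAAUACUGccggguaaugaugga
miR-200a-3p: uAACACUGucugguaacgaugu
miR-141-3p: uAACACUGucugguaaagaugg

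Mir200b, Mir429 and Mir200c share the seed AAUACUG, and Mir200a and Mir141 share AACACUG. Between the seeds the single difference is the substitution U4C, counted from the 5′ end of the mature miRNA with the base of miR-200b first. None (0) of the other 1728 mature mouse miRNAs in the table has either 3p seed. Over 22 bases of the 3p strand, seed included, the closest relative of each of 4 members lies in the other cluster. Mir200b and Mir200c differ by 2 substitutions over 22 bases, U11G and A22G, with the base of miR-200b first. Mir200a and Mir141 also differ by 2, C17A and U22G, with the base of miR-200a first. Mir429 has no such close partner and differs from each other member by 4 or 5 bases.

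The 5p strands, cut from the other arm of the same hairpins, are shown because the deposited counts are per hairpin and do not tell the arms apart.
miR-200b-5p: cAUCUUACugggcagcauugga
miR-200a-5p: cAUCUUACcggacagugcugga
miR-429-5p: gUCUUACCagacaugguuaga
miR-200c-5p: cGUCUUACccagcaguguuugg
miR-141-5p: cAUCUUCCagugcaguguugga

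On the 5p side Mir200b and Mir200a, both of the chromosome 4 cluster, share a seed, and the other 3 have one each. Each level below is therefore the sum of both arms, and a member is put in a seed group by its 3p strand.

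The seed matches of the 3p strands occur several times in the 3′ UTRs of both Zeb genes. The 7-base complement of the AAUACUG seed is CAGTATT, and that of the AACACUG seed is CAGTGTT. Matches of the 2 motifs cannot overlap each other. Both were searched on the transcript strand in the longest GENCODE 3′ UTR of 20975 protein-coding genes. CAGTATT occurred 5 times in the 2401 bases of Zeb1 and 5 times in the 4941 bases of Zeb2, whereas 13.2% of all 3′ UTRs held it at all and 2.21% held it more than once. CAGTGTT occurred 4 times in each, against 17.1% of 3′ UTRs with at least 1 match and 3.74% with more than 1. Both Zeb 3′ UTRs are longer than the median of 955 bases, and these shares are not corrected for length. For each motif the match nearest to the stop codon of Zeb2 (chromosome 2) is shown, as DNA with the match in capitals.
Zeb2, CAGTATT: taccatacatCAGTATTttattattat
Zeb2, CAGTGTT: aaattttgtaCAGTGTTaaggcctaaa

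These are matches of letters, and pairing or repression at them was not measured here.

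In the genome the chromosome 4 cluster spans 1846 bases and the chromosome 6 cluster 477 bases. In the order of transcription Mir200b (ENSMUSG00000065549.2, chr4:156055681-156055750) comes first. It is followed after a gap of 695 bases by Mir200a (ENSMUSG00000065400.1, chr4:156054896-156054985) and after a further 908 bases by Mir429 (ENSMUSG00000065427.1, chr4:156053905-156053987). All 3 lie within introns of Ttll10, a protein-coding gene on the same strand, and Mir429 also overlaps an annotated exon of the gene Gm13648. On chromosome 6, Mir200c (ENSMUSG00000065462.2, chr6:124718322-124718390) precedes Mir141 (ENSMUSG00000065474.1, chr6:124717914-124717985) by a gap of 336 bases. This pair lies between the protein-coding genes Phb2 and Ptpn6, in intronic sequence of the noncoding gene Gm15884. Mir141 also overlaps an exon of Gm29008. In each cluster a hairpin of the AAUACUG seed comes first, and the hairpin of the AACACUG seed is next.

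The libraries held 5128214 counts on the strand of a miRNA gene in replicate 1 and 2332032 in replicate 2, of which 170741 and 78659 belonged to the family. Levels are given as counts per 1000000 such counts (CPM), a scale that needs no correction for length because each read is about 1 mature miRNA. A single count equalled 0.195 CPM in the deeper replicate 1 and 0.429 CPM in replicate 2. Intervals are 95% exact (Clopper-Pearson) binomial intervals. They hold the counting error of reads alone and leave out the variation between libraries. Reads amplified from 1 molecule are counted apart, so the intervals may be too narrow even for the counting of molecules. Reads that mapped to several loci, 32.9% and 33.1% of all reads, were assigned to no gene. The longest stretch that 2 family hairpins share is 17 bases, between Mir200a and Mir141. No hairpin outside the family shares 16 bases with a member among 1004 hairpins searched. Only exact stretches of these hairpins were compared, and the rest of the genome was not searched. How many reads the members lost to multimapping was not measured. How efficiently each sequence entered the libraries was not measured, so ratios between members are ratios of reads.

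All 5 members were well detected, and the 3 members of the AAUACUG seed stood above both members of the AACACUG seed in each library. Mir429 had 76662 counts (14949 CPM, interval 14844 to 15055) in replicate 1 and 31060 counts (13319 CPM, interval 13172 to 13467) in replicate 2. It averaged 14134 ± 1153 CPM (SD, n = 2) and ranked 15 and 18 among the 1973 genes. Mir200c had 52287 counts (10196 CPM) in replicate 1 and 26972 counts (11566 CPM) in replicate 2, an average of 10881 ± 969 CPM at ranks 22 and 21. Both were thus among the abundant genes in these counts, and their ranges did not overlap with each other. The ranks leave out reads that mapped to several loci, so miRNAs with copies elsewhere in the genome may rank too low.

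Mir200b, the other member of that seed, had 29357 counts (5725 CPM) in replicate 1 and 14366 counts (6160 CPM) in replicate 2, an average of 5942 ± 308 CPM at ranks 34 and 37. Mir141 had 8006 counts (1561 CPM) in replicate 1 and 4022 counts (1725 CPM) in replicate 2, an average of 1643 ± 116 CPM at ranks 83 and 80. Mir200a was the lowest member, with 4429 counts (864 CPM) in replicate 1 and 2239 counts (960 CPM) in replicate 2, an average of 912 ± 68.2 CPM at ranks 108 and 106. The order Mir429, Mir200c, Mir200b, Mir141, Mir200a was the same in both libraries, and no 2 neighbours in it overlapped. The closest neighbours were Mir429 and Mir200c, whose ratio of counts was 1.47 in replicate 1 (interval 1.45 to 1.48) and 1.15 in replicate 2 (1.13 to 1.17). Counts on the opposite strand of the 5 hairpins were 0 or 1 in each library.

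**Figure D1:**
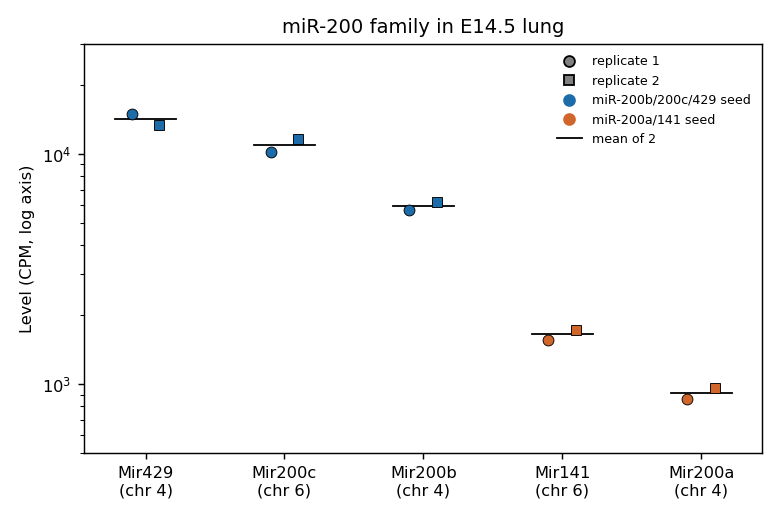
Level of each family member in CPM (log axis), with circles for replicate 1, squares for replicate 2 and a line for their mean; error bars are 95% exact binomial intervals and are smaller than most symbols. Blue marks the seed of Mir200b, Mir200c and Mir429 and orange that of Mir200a and Mir141; the blue members lie between 5725 and 14949 CPM and the orange ones between 864 and 1725 CPM.

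The genes closest to the members in mean level over the 2 libraries belong to other miRNA groups. Those next above and below were Mirlet7d (14184 ± 316 CPM) and Mir21a (12443 ± 184) for Mir429, Mir23a (11423 ± 663) and Mir93 (10139 ± 2020) for Mir200c, and Mir130b (6230 ± 797) and Mir379 (5938 ± 1230) for Mir200b. For Mir141 they were Mir708 (1652 ± 110) and Mir154 (1553 ± 40.0), and for Mir200a Mir467d (981 ± 115) and Mir540 (910 ± 19.0; SD, n = 2 throughout). They lay within 0.19 of the member on the log2 scale. Of these 10 neighbours, Mir21a was the only one whose 2 libraries did not overlap with its member's.

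Grouped by the seed of the 3p strand, the family's counts in E14.5 lung, of both arms, came almost wholly from hairpins of the AAUACUG seed. Mir429, Mir200c and Mir200b held 92.7% of the family's counts in replicate 1 and 92.04% in replicate 2, against 7.28% and 7.96% for Mir141 and Mir200a. The AAUACUG group thus exceeded the AACACUG group 12.7-fold in replicate 1 (interval 12.5 to 13.0) and 11.6-fold in replicate 2 (11.3 to 11.9), a log2 ratio of 3.60 ± 0.10 (SD, n = 2). Counting 3 genes against 2 contributes to this sum, and with geometric means of the members the log2 ratio was 2.99. The ratios within libraries are given as descriptions, without a test: with 2 libraries the smallest two-sided p of an exact sign test is 0.5.

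The same seed difference was present inside each cluster, among hairpins within 1846 bases of each other. In the chromosome 6 cluster Mir200c exceeded Mir141 6.53-fold in replicate 1 (6.38 to 6.69) and 6.71-fold in replicate 2 (6.49 to 6.93). In the chromosome 4 cluster its first hairpin Mir200b exceeded the adjacent Mir200a 6.63-fold (6.42 to 6.84) and 6.42-fold (6.14 to 6.71). These ratios of the first to the next hairpin were close in both clusters, and their intervals overlapped within each library and between the libraries. The comparison of the first with the next hairpin was not among the planned ratios. It leaves out Mir429, the most abundant gene of the chromosome 4 cluster. The planned ratio of that cluster, with Mir429 added to Mir200b, was 23.9-fold in replicate 1 and 20.3-fold in replicate 2. By this ratio the seed difference was larger in the chromosome 4 cluster than in the chromosome 6 cluster in both libraries.

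**Figure D2:**
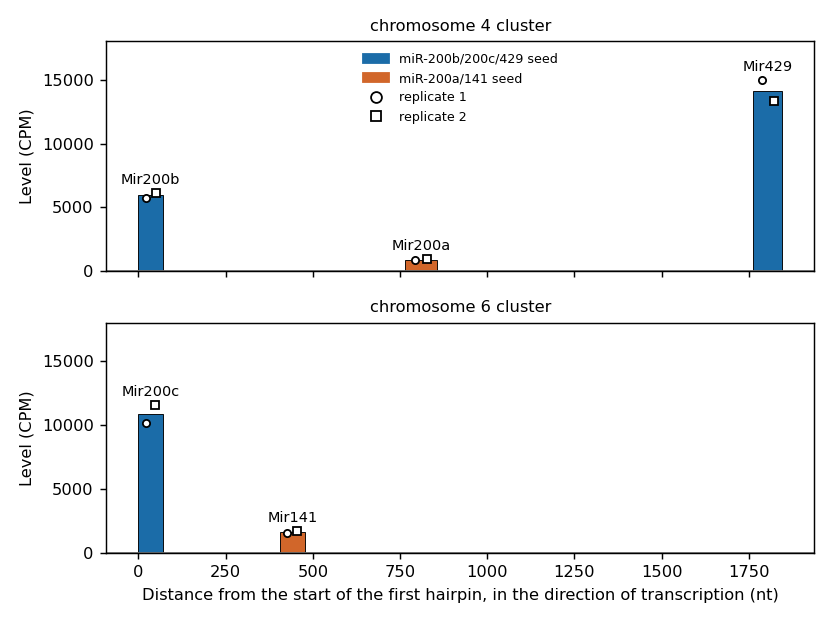
Mean level in CPM (bar height) of each hairpin, drawn at its distance in bases from the start of the first hairpin of its cluster and as wide as the hairpin; circles are replicate 1 and squares replicate 2. In both clusters a blue hairpin of the AAUACUG seed is followed by a lower orange hairpin of the AACACUG seed, and Mir429 at the end of the chromosome 4 cluster is the highest of the 5.

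Set against other miRNA clusters of these libraries, neither cluster stood apart in how unequal its members were. Clusters were taken as genes of 1 strand within 10000 bases of each other, with at least 10 counts in both libraries. Within the chromosome 4 cluster the highest member, Mir429, exceeded the lowest, Mir200a, 15.5-fold in mean CPM. Among 5 other clusters of 3 such members the median was 8.83-fold, and 2 of the 5 were wider. Within the chromosome 6 cluster the spread was 6.62-fold, whereas 26 other pairs had a median of 10.03-fold and 15 were wider. Many of the other clusters hold members with copies elsewhere in the genome, which lose multimapping reads. Their spreads may be too wide for this reason, so the comparison holds for assigned counts only.

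Grouped by cluster, the chromosome 4 genes held more counts than the chromosome 6 genes, through Mir429. The chromosome 4 cluster had 21537 CPM in replicate 1 and 20439 CPM in replicate 2, and the chromosome 6 cluster had 11757 and 13291 CPM. The ratio was 1.83 in replicate 1 (1.81 to 1.85) and 1.54 in replicate 2 (1.52 to 1.56), a log2 ratio of 0.75 ± 0.18 (SD, n = 2). Per hairpin the difference was smaller, at 7179 against 5879 CPM in replicate 1 and 6813 against 6645 CPM in replicate 2. With geometric means of the members the log2 ratio was 0.07 in replicate 1 and -0.06 in replicate 2, and its mean was 0.01. Without Mir429, a choice made after the values were seen, it was -0.87.

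Each chromosome 6 gene stood above its closest relative on chromosome 4 by nearly the same factor. Mir200c exceeded Mir200b 1.78-fold in replicate 1 (1.76 to 1.81) and 1.88-fold in replicate 2 (1.84 to 1.92). Mir141 exceeded Mir200a 1.81-fold in replicate 1 (1.74 to 1.88) and 1.80-fold in replicate 2 (1.71 to 1.89). Within each library the intervals of the 2 pairs overlapped. Over both pairs together the chromosome 6 genes had 1.78 and 1.87 times the counts of their chromosome 4 relatives. The pairs were compared after the values were seen. Their likeness is not a separate result. It follows by arithmetic from the close ratios of Mir200c over Mir141 and Mir200b over Mir200a given above.

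**Figure D3:**
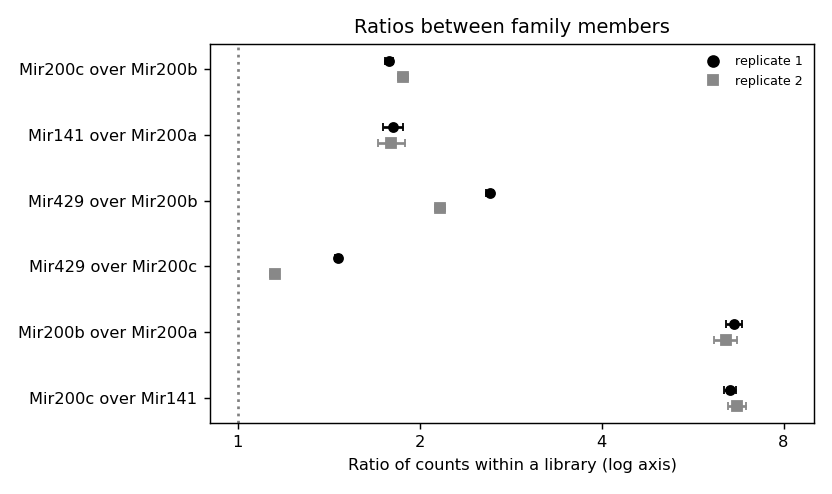
Ratio of counts between pairs of family members within a library (log axis), with black circles for replicate 1, grey squares for replicate 2, 95% exact binomial intervals as bars and a dotted line at 1. Mir200c over Mir200b and Mir141 over Mir200a lie between 1.78 and 1.88, Mir200b over Mir200a and Mir200c over Mir141 between 6.42 and 6.71, and the ratios with Mir429 differ more between the libraries. The ratios without Mir429 use the same counts, so the likeness within the former pair and that within the latter are 1 observation.

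The family as a whole was nearly equal in the 2 libraries, at 3.33% of counts in replicate 1 (3.31 to 3.35) and 3.37% in replicate 2 (3.35 to 3.40), while its make-up differed. Mir429 held 44.9% of the family's counts in replicate 1 (44.7 to 45.1) and 39.5% in replicate 2 (39.1 to 39.8). The other 4 members each held a smaller share in replicate 1 than in replicate 2, with Mir200c at 30.6% and 34.3%. The ratio of Mir429 to its cluster mate Mir200b was 2.61 in replicate 1 (2.58 to 2.65) and 2.16 in replicate 2 (2.12 to 2.21).

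Compared gene by gene with exact two-sided binomial tests on TMM-scaled library sizes and Benjamini-Hochberg adjustment, 2 of the 5 members passed an adjusted p of 0.05. Of all 404 genes with at least 10 counts over both libraries 41.8% passed, 24% with the higher level in replicate 1 and 17.8% in replicate 2, against 40% of the members. Abundant genes passed more often, at 82.8% of the 122 tested genes with at least 500 CPM, a limit that all 5 members exceed and that was chosen after the values were seen. Log2 ratios are of replicate 1 to replicate 2. Mir429 was the higher one in replicate 1, at 0.26 (adjusted p = 1.45e-155, exact binomial test), and Mir200c the lower one, at -0.09 (adjusted p = 1.05e-16, exact binomial test). Values for the members that did not pass were -0.06 for Mir200a (adjusted p = 0.184, exact binomial test) and -0.05 for Mir141 (adjusted p = 0.112, exact binomial test). Mir200b stood at -0.02 (adjusted p = 0.426, exact binomial test), and at 0.03 with DESeq2 size factors. With TMM the median absolute log2 ratio was 0.06 over the members, 0.23 over the 404 genes and 0.17 over the 122 abundant ones. The median over the members depends on the scaling. With library totals their log2 ratios were 0.17 for Mir429, -0.18 for Mir200c, -0.11 for Mir200b, -0.14 for Mir141 and -0.15 for Mir200a. The count of members depends on the scaling: with library totals, the scale of the CPM values, all 5 passed, Mir429 higher and the other 4 lower in replicate 1, and 43.8% of the 404 genes did. The balance of calls over all genes then turned as well, to 65 higher and 112 lower in replicate 1, against 97 and 72 with TMM.

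These tests compare the reads of 2 libraries and not conditions. With the common dispersion of the libraries from edgeR (0.0337, a coefficient of variation of 18.3%) added to counting error, 0 of the 5 members and 0.248% of the 404 genes passed. That dispersion was estimated from the same 2 libraries, so few genes could pass by construction, and nothing is read from these counts. The coefficient of variation of the members over the 2 libraries lay between 5.18% for Mir200b and 8.90% for Mir200c.

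**Figure D4:**
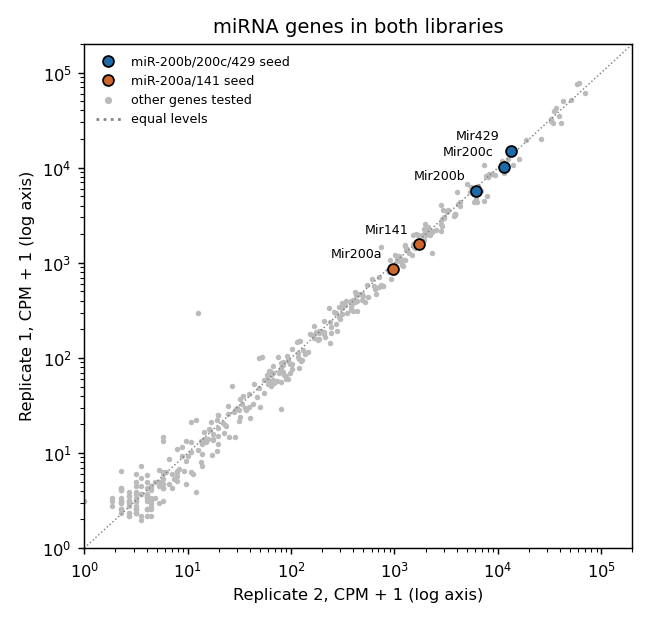
Level of each of the 404 tested genes in replicate 1 (vertical) against replicate 2 (horizontal), as CPM + 1 on log axes, with the family members in blue and orange by seed, other genes in grey and a dotted line of equal levels. All 5 members lie close to the line, with Mir429 above it and the other 4 below it.

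Other miRNAs used as epithelial markers held fewer counts in total than the family, while single genes of the 2 lists were mixed in level. The list of Mir205, Mir203 and the cluster of Mir183, Mir96 and Mir182 was found whole (5 of 5). In total the family exceeded it 2.42-fold in replicate 1 (2.40 to 2.44) and 2.00-fold in replicate 2 (1.97 to 2.02), a log2 ratio of 1.14 ± 0.20 (SD, n = 2). The highest of that list was Mir182, known from sensory epithelium, whose libraries stood at 5061 CPM (replicate 1) and 7847 CPM (replicate 2). Its range took in both values of Mir200b. The remaining 4 of that list had mean levels between 1504 CPM (Mir96) and 2893 CPM (Mir183), above Mir200a. Mir183, Mir205 (2380 CPM) and Mir203 (2100 CPM) also stood above Mir141 in both libraries. Between the libraries 4 of the 5 passed the same exact binomial test, beside 41.8% of all 404 genes and 82.8% of the abundant ones. With TMM 2 of these were higher in replicate 1 (Mir203 and Mir183) and 2 lower (Mir205 and Mir182), and Mir183 changed sign with library totals.

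For the other tissue layers, the family's total stood above that of the mesenchymal list and below those of the endothelial and smooth muscle lists. The 4 genes of miR-199 and miR-214 together had 9078 CPM in replicate 1 and 10251 CPM in replicate 2, nearly all of it Mir214. Reads that mapped to several loci were assigned to no gene, and Mir199a-1 and Mir199a-2 are copies of 1 miRNA. The total of this list may therefore be too low, and so may the part of miR-199 in it. Mir126a, the 1 gene of the endothelial list, had 76033 CPM in replicate 1, above its 58438 CPM in replicate 2. The smooth muscle list of Mir143 and Mir145a had 79791 and 62023 CPM, nearly all of it Mir143 at 78321 and 60488 CPM. Mir145a, its other gene, had 1470 CPM in replicate 1 and 1535 CPM in replicate 2, below every member except Mir200a. Mir126a and Mir143 were higher in replicate 1, at TMM-scaled log2 ratios of 0.47 and 0.46, and both passed the exact binomial test. All 4 genes of the mesenchymal list passed it as lower in replicate 1. Their log2 ratios ran from -0.07 for Mir214 to -1.56 for Mir199a-1, which had only 15 and 26 counts. Of all 404 genes 41.8% passed, and of the abundant ones 82.8%. Mir145a did not pass, at 0.03 (adjusted p = 0.525, exact binomial test) and at -0.06 with library totals. On library totals, the scale of the family's share, Mir126a was at 0.38, Mir143 at 0.37 and Mir214 at -0.16. Beside the differences in these lists the family's share was 3.33% in replicate 1 and 3.37% in replicate 2. The part of the tissue layers in these differences was not tested.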

How the data were processed

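MicroRNA sequencing of E14.5 mouse lung was deposited as 1 table per library (2 libraries, 1 group). The size range of the RNA was under 30 nt, per the labels. The authors deposited whole-number counts per miRNA gene, without regard to strand, on the gene's strand and on the opposite strand, judged from the values. They rest on alignments to mm10 with GENCODE M4, per the file headers of the deposited readme. Aligner and counter: not given in the sources used here.

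The gene-strand counts were used. Entries that name no gene stayed out of totals: unmapped (12.7% and 11.7% of reads in replicates 1 and 2), multimapping (32.9% and 33.1%), no feature (4.10% and 3.93%) and ambiguous (0%). Of 1973 identifiers 1894 matched GENCODE M21 after removal of versions. Sequences came from RefSeq tables of GRCm38.p6, and 3′ UTRs from GENCODE M21 transcripts.

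CPM, shares and ratios were computed per library and are given with mean ± SD and exact intervals. Genes with at least 10 counts over both libraries were tested, with a pseudocount of 1 CPM in log2 ratios and a threshold of 0.05. The test was tried on simulated counts. Named genes were the members, their neighbours in mean level and listed markers; members, lists and rules were chosen with earlier results of these data known. No column of values was left without a sample (0). Alternatives covered denominators, strand, scaling, count filter, dispersion, ways of combining members and leaving out each replicate. Software was Python 3.11.15, scipy 1.17.1, R 4.3.3, edgeR 4.0.16 and DESeq2 1.42.0.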

Additional observations from a re-analysis of the deposited data

How the results depend on the processing

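The mean log2 ratios between groups of genes within a library kept their sign under the alternatives run, with 1 exception and 1 value near 0. Without Mir429, added after the values were seen, the log2 ratio of the chromosome 4 to the chromosome 6 cluster was -0.87, because the cluster then lacks its most abundant gene. It was 0.00689 with geometric means, with opposite signs in the libraries (0.07 in replicate 1 and -0.06 in replicate 2), and 2.06 without the most abundant gene of each cluster. The log2 seed ratio was 2.99 with geometric means and 4.21 without the most abundant gene of each seed group, and the ratio of the family to other epithelial miRNAs was 0.66 with geometric means. With multimapping, no-feature and ambiguous reads in the denominator, levels were 8172 CPM for Mir429, 6295 for Mir200c, 3437 for Mir200b, 950.4 for Mir141 and 528 for Mir200a, and the family share was 1.94%. Without the most abundant gene in the denominator they were 6384 CPM for Mir200b, 1765 for Mir141 and 3.60% for the family, and counts without regard to strand gave a share of 3.26%.

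With 1 replicate left out, values ranged as the libraries themselves: 13319 to 14949 CPM for Mir429, 10196 to 11566 for Mir200c, 5725 to 6160 for Mir200b, 1561 to 1725 for Mir141, 864 to 960 for Mir200a and 3.33% to 3.37% for the family. The log2 ratios ranged from 0.62 to 0.87 for the clusters, 3.53 to 3.67 for the seeds, 4.34 to 4.58 and 2.71 to 2.75 for the seeds within the chromosome 4 and 6 clusters, and 1.00 to 1.27 for the family over other epithelial miRNAs.

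Library totals called 5 members (Mir429 higher and the other 4 lower in replicate 1), against 2 with TMM, and with the common dispersion added 0 members and 1 of 404 genes passed, against 169; it comes from the same 2 libraries, so few could pass by construction. TMM shifted all log2 ratios of replicate 1 to replicate 2 by 0.09 relative to library totals. Calls higher in replicate 1 were 57.4% with TMM, 36.7% with library totals and 63.7% with DESeq2 size factors. Mir429 ranged from 0.17 to 0.30 and Mir200c from -0.18 to -0.05 over these scalings, and both passed in each. Mir200b, at -0.11, -0.02 and 0.03, changed sign. No paired analysis was possible because there is 1 group. Counting error limits the ratios of the lowest member, Mir200a, most.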
